A study of Mus musculus with 8 samples.

Results

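Transglutaminases and the proteases of cornification are the enzymes examined here: the transglutaminase genes Tgm1, Tgm2, Tgm3 and Tgm5, the caspase gene Casp14 and the aspartic protease gene Asprv1. Their rows were picked by gene symbol. Of the 6 genes, 5 had a row among the 20152 genes of the mutant-versus-control comparison, and Tgm5 was not analysed here. RNA came from the dissected back skin of E14.5 mouse embryos, in 4 libraries of GNAQ R183Q embryos and 4 of wild-type embryos, which the labels call biologically independent. GNAQ is the alpha subunit of the G protein Gq, and the labels used here state neither the cells in which the R183Q protein was made nor the promoter, strain, sex or litter. The values are the authors' own: a mean expression over libraries, a log2 fold change (GNAQ R183Q over wild type) with its p-value, and z-scores summarised per genotype. Values of single libraries were not used, and their depth is unknown.

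In the epidermis, keratinocytes that leave the basal layer replace their plasma membrane with the cornified envelope, a protein shell built beneath it. Transglutaminases are calcium-dependent enzymes that make this shell insoluble by joining glutamine to lysine side chains of neighbouring proteins. In the same cells proteases cut filaggrin, which bundles keratins, and its products hold water in the outer skin. TGM1 is the membrane-anchored transglutaminase of keratinocytes, TGM3 a soluble enzyme made as an inactive precursor, and TGM2 the tissue transglutaminase of many cell types, among them endothelium and fibroblasts. CASP14 is a caspase of cornifying keratinocytes that is not known for apoptosis and helps to degrade filaggrin, and ASPRV1, also called SASPase, is a retroviral-like aspartic protease that cuts the linkers of profilaggrin.

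Skin of GNAQ R183Q embryos held less RNA of both proteases and of the transglutaminases Tgm1 and Tgm3, while Tgm2 was not called. Asprv1 fell 2.93-fold, Casp14 2.81-fold, Tgm1 1.80-fold and Tgm3 1.69-fold, from the log2 fold changes of the authors' deposited table. Thus 4 of the 5 genes fell and 0 rose at the threshold used throughout, an adjusted p of 0.05 from the authors' DESeq2 comparison. Of all genes in the comparison, 2.46% fell and 0.63% rose. Of the genes that reach 1 CPM, a count scaled to the library total, 3.31% fell, and all 5 genes reach it. The median log2 fold change was -0.85 over the 5 genes and 0.01 over all genes. In bulk RNA of this kind, fewer cells of a type and less RNA per cell cannot be told apart.

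The promoters of the 4 genes that fell are shown because these genes moved together. Each sequence is the 250 bases before the annotated start, on the strand of the gene and read 5′ to 3′, from RefSeq on build GRCm38.p6, which is not the mm39 build named by the submitters. They lie at chr14:55713493-55713742 (minus strand) for Tgm1, chr2:130012090-130012339 (plus strand) for Tgm3, chr10:78718294-78718543 (minus strand) for Casp14 and chr6:86627924-86628173 (plus strand) for Asprv1. For Tgm1, which has several annotated starts, the further upstream of 2 windows is given. Capitals mark matches, on either strand, to the motifs searched: CACCC, the box bound by Klf-family factors, TTGCNNAA for C/EBP factors, TATAAA for the TATA box, TGANTCA for AP-1 and AACNGGTT for Grainyhead-like factors.
Tgm1: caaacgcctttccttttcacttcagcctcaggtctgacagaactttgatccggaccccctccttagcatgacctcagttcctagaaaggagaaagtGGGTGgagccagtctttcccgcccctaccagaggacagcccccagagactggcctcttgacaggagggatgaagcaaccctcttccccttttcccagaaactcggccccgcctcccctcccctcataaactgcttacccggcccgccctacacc
Tgm3: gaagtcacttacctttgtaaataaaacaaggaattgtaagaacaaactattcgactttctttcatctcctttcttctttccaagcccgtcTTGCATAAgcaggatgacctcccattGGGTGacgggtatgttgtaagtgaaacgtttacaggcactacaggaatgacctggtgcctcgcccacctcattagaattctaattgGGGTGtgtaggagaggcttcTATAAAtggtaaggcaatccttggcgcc
Casp14: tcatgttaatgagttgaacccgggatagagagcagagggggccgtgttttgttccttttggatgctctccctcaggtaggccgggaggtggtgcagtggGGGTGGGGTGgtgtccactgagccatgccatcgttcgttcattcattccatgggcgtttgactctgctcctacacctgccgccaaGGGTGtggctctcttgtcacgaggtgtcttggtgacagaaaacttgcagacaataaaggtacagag
Asprv1: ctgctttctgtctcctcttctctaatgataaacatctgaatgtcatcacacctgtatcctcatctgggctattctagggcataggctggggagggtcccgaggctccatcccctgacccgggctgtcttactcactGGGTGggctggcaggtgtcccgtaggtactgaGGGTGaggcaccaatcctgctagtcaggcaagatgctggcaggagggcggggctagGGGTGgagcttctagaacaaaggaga

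CACCC or its reverse complement occurred in all 4 windows, with 1 match for Tgm1, 2 for Tgm3, 3 for Casp14 and 3 for Asprv1. The same letters occurred in 52.0% of 32851 RefSeq mouse promoter windows of this length, so a match is common. Tgm3 alone among the 4 held TATAAA, from 28 to 23 bases before the start, and TTGCNNAA, from 160 to 153 bases before it. Those motifs occurred in 12.4% and 9.56% of all windows. TGANTCA and AACNGGTT, found in 6.75% and 1.79% of all windows, had 0 matches in these 4. The Tgm3 window was 44.0% G and C, below the 58.0% of Tgm1, 54.4% of Casp14 and 56.4% of Asprv1. No motif overlapped another, and a match describes letters, not a site in use.

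The level in each genotype was derived from the mean over all libraries and the log2 fold change, taking the mean as that of 4 plus 4 libraries. On this scale of normalized counts Tgm1, the main envelope transglutaminase of keratinocytes, stood at an implied mean of 1672 in GNAQ R183Q skin and 3004 in wild-type skin. Its log2 fold change in the authors' deposited table was -0.85, and the interval at 95% that their p-value implies ran from -1.22 to -0.47, with an adjusted p of 0.000799 by DESeq2. It took place 214 of 20152 when genes were ordered by p. An opposite-strand gene model, Gm49067, overlaps Tgm1 in the annotation used here and was not analysed, and the labels used here do not state whether counting used strand.

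Tgm3, the epidermal and hair-follicle transglutaminase, stood at an implied 1144 normalized counts in GNAQ R183Q skin and 1939 in wild-type skin. The authors' deposited table gives it a log2 fold change of -0.76, an implied interval from -1.15 to -0.37 and a DESeq2 adjusted p of 0.00794. It was the smallest of the 4 falls, and its interval overlaps that of Tgm1 almost entirely.

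Tgm2, the tissue transglutaminase, stood at an implied 529 normalized counts in GNAQ R183Q skin and 525 in wild-type skin. The authors' deposited table lists its log2 fold change as 0.01 and its adjusted p as 0.988. The implied interval, from -0.26 to 0.27, leaves out a change as large as that of Tgm1 or Tgm3 in the authors' fit. Part of the Tgm2 gene lies across Rprd1b on the other strand, and the authors' deposited table lists Rprd1b at a log2 fold change of -0.03 and a mean expression of 1239. If strand was not used in counting, reads of Tgm2 and Rprd1b in their shared stretch cannot be told apart.

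Casp14, the caspase of cornification, stood at an implied 398 normalized counts in GNAQ R183Q skin and 1119 in wild-type skin. In the authors' deposited table its log2 fold change was -1.49, with an implied interval from -1.88 to -1.11 and a DESeq2 adjusted p of 3.02e-11. It was place 19 of all genes by p, the first of the 5. Asprv1, the profilaggrin-cutting protease, stood at an implied 3049 normalized counts in GNAQ R183Q skin and 8927 in wild-type skin. At -1.55 in the authors' deposited table, its log2 fold change had an implied interval from -2.04 to -1.06 and a DESeq2 adjusted p of 1.49e-07. Asprv1 thus had a fold change close to that of Casp14 but a wider interval, and was place 68 by p. The upper ends of both protease intervals lie below the log2 fold changes of Tgm1 and Tgm3, but both intervals overlap those of Tgm1 and Tgm3. A difference between genes was not tested, because all come from the same libraries.

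**Figure D1:**
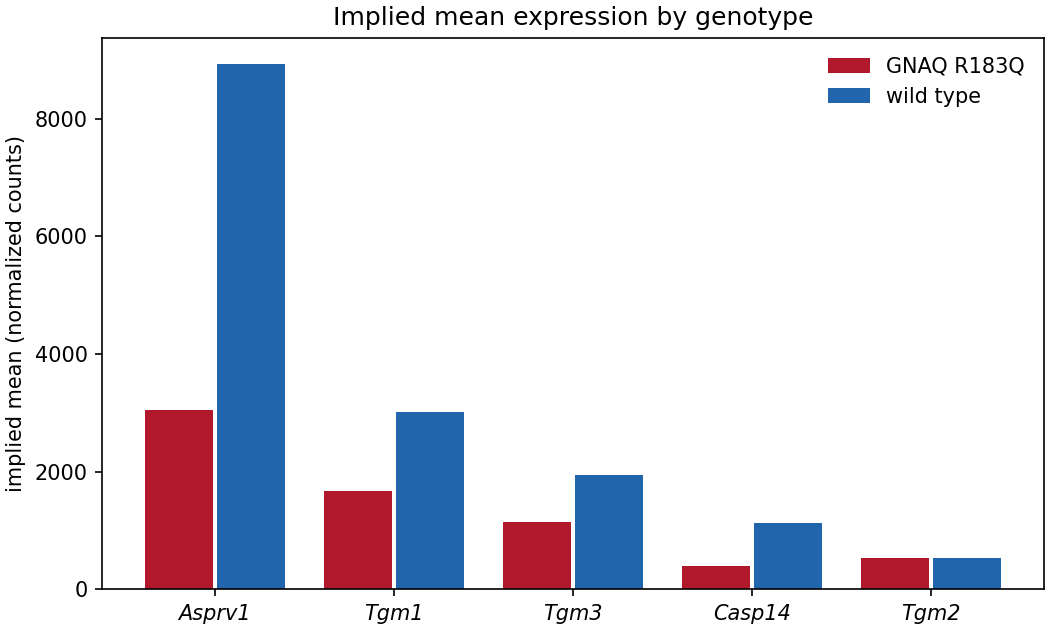
Implied mean expression in normalized counts, GNAQ R183Q (red) left of wild type (blue), for the 5 genes, with no error drawn because the means derive from the authors' summary values. Asprv1 reaches 3049 in GNAQ R183Q skin and 8927 in wild-type skin, while the bars of Tgm2, 529 and 525, are level.

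**Figure D2:**
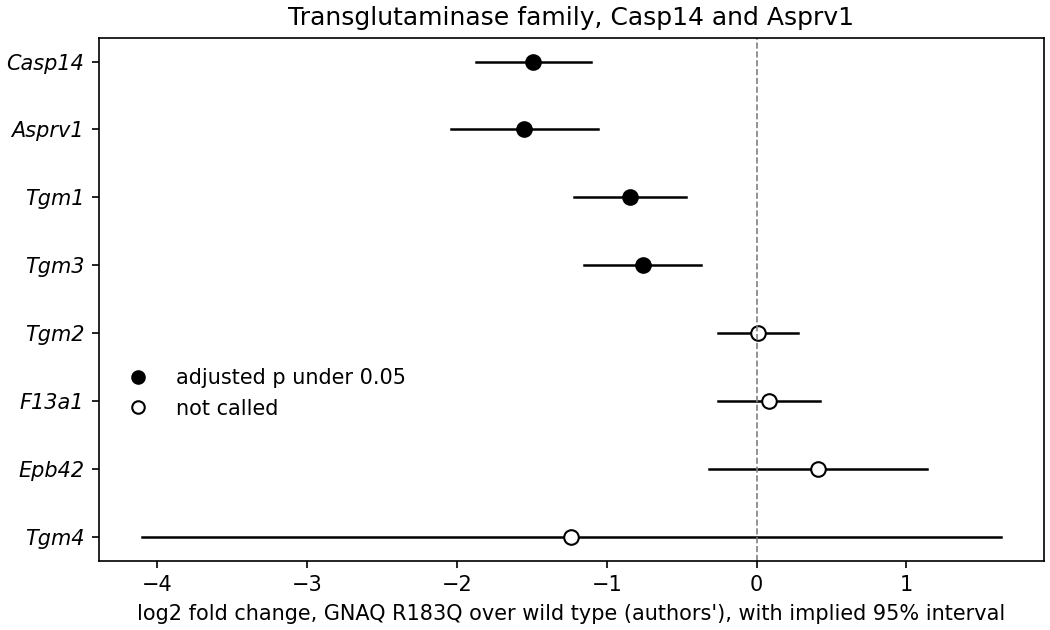
Authors' log2 fold change, GNAQ R183Q against wild type (points, filled where the adjusted p is under 0.05), with the implied 95% interval (lines), for the 5 genes and 3 further members of the transglutaminase family. Casp14, Asprv1, Tgm1 and Tgm3 lie left of 0 with intervals that do not reach it, and Tgm2 and F13a1 sit at 0.01 and 0.08.

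Levels can be set side by side between genes only per length of transcript. On implied normalized counts per kilobase, GNAQ R183Q skin held 1971 of Asprv1, 586 of Tgm1, 277 of Tgm3, 170 of Casp14 and 147 of Tgm2. Wild-type skin held 5770 of Asprv1, 1053 of Tgm1, 479 of Casp14, 469 of Tgm3 and 146 of Tgm2. Asprv1 was therefore the most abundant of the 5 per length in both genotypes, 3.36 times the next gene in GNAQ R183Q skin and 5.48 times in wild-type skin. The spread of single libraries was derived from the implied standard errors of the authors' fit and not measured from library values. This implied spread was a log2 SD of 0.35 for Asprv1, 0.28 for Casp14 and Tgm3, 0.27 for Tgm1 and 0.19 for Tgm2. Casp14 and Tgm2 in GNAQ R183Q skin, 0.21 apart on the log2 scale, and Casp14 and Tgm3 in wild-type skin, 0.03 apart, were closer than that spread. The other neighbours in either order were further apart than the spread. Tgm3 stood above Casp14 by 0.70 on the log2 scale in GNAQ R183Q skin, where wild-type skin had them level.

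The z-scores describe how the libraries lie. A z-score is the distance of a library from the mean of all 8 in units of their SD, here of log2 CPM, and the authors' deposited table gives its mean and median over the 4 libraries of each genotype. Casp14 had a mean z-score of -0.89 and a median of -0.85 in GNAQ R183Q libraries, against 0.89 and 0.86 in wild-type libraries. Asprv1 had a mean of -0.85 and a median of -0.97 in GNAQ R183Q libraries, against 0.85 and 0.70 in wild-type libraries. For Asprv1 the wild-type median lay below the mean and the GNAQ R183Q median below its mean, so in both genotypes the highest library stood further above the median than the lowest stood below it. Tgm1 was even, with a mean of -0.82 and a median of -0.83 in GNAQ R183Q libraries, against 0.82 and 0.80 in wild-type libraries. Tgm3 had a mean of -0.77 and a median of -0.63 in GNAQ R183Q libraries, against 0.77 and 0.98 in wild-type libraries. Its skew ran the other way from that of Asprv1, with the lowest library further from the median than the highest in both genotypes. Tgm2 had a mean of 0.15 and a median of 0.07 in GNAQ R183Q libraries, against -0.15 and -0.10 in wild-type libraries.

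Mean, median and the fixed sum of squared z-scores together limit where single libraries can lie. For Casp14 no GNAQ R183Q library can lie above -0.36 and no wild-type library below 0.35, so the genotypes are apart by at least 0.71 of the SD. For Asprv1 those limits are -0.01 in GNAQ R183Q libraries and 0.27 in wild-type libraries, apart by at least 0.28. Tgm1 and Tgm3 must separate as well, since any overlap would need a larger sum of squares than 8 z-scores have, but no size can be given for their gap. The order of libraries for Tgm2 is not fixed by these values. So all 4 libraries of GNAQ R183Q skin lay below all 4 of wild-type skin for 4 of the 5 genes, a pattern these limits fix for 3.79% of all genes. These are the same libraries as in the DESeq2 test and add no separate evidence.

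**Figure D3:**
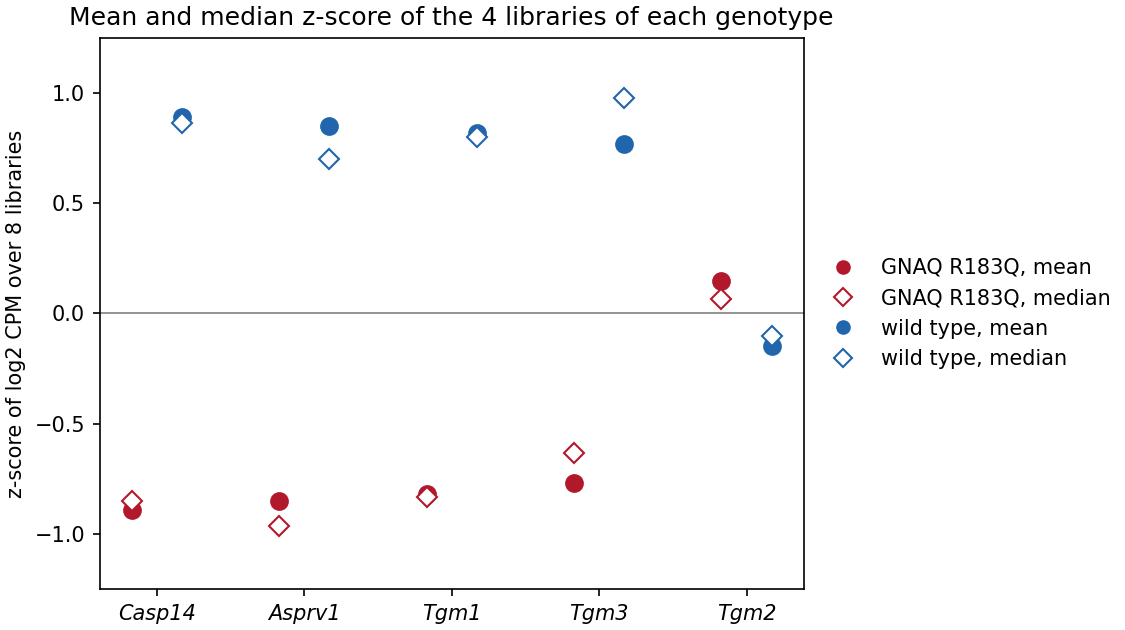
Mean (circles) and median (diamonds) z-score of log2 CPM over the 4 libraries of GNAQ R183Q (red, left) and wild type (blue, right) for each gene. The means of the 4 genes that fell lie between -0.89 and -0.77 in GNAQ R183Q and mirror that in wild type, while those of Tgm2 are 0.15 and -0.15.

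The genes whose 4 z-score summaries came nearest to each of the 5 were found among genes of at least 1 CPM, by straight-line distance. Those of Casp14 were Pnpla1, an enzyme of acylceramide synthesis, at a distance of 0.0158, and Itpkb, an inositol trisphosphate kinase, at 0.0267. Both fell, and the authors' deposited table gives them log2 fold changes of -1.08 and -0.93. Near Asprv1 was the connexin gene Gjb5, at 0.0238, which fell and is listed in the authors' deposited table at a log2 fold change of -2.25. Tspan15 and Atp5d came nearest to Tgm1, at 0.0156 and 0.0220, and fell, with the authors' deposited table giving log2 fold changes of -0.57 and -0.48. Zfp64 and Tmem41a came nearest to Tgm3, and neither passed the threshold. Zranb1 and Jcad came nearest to Tgm2 and stand in the authors' deposited table at log2 fold changes of -0.01 and 0.06. Such likeness rests on 4 numbers over 8 libraries of 1 contrast and takes no account of the size of a change.

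Further members of the transglutaminase family did not pass the threshold. Of 3 measured genes 0 fell and 0 rose by DESeq2, and 0 were past an unadjusted p of 0.05. At that unadjusted p, 1658 of all 20152 genes were lower and 1197 higher. F13a1, the transglutaminase subunit of clotting factor XIII that macrophages also make, stood at an implied 3195 normalized counts in GNAQ R183Q skin and 3016 in wild-type skin. Its log2 fold change in the authors' deposited table was 0.08, with an implied interval from -0.26 to 0.42. Epb42, the catalytically inactive family member of the red-cell membrane, had a log2 fold change of 0.41 at a mean expression of 27.3, and Tgm4, the prostate enzyme, one of -1.24 at a mean of 4.10, both as the authors' deposited table gives them. The interval of Tgm4, from -4.11 to 1.63, shows how little the table says at that level.

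The other caspases were set beside Casp14. Of 9 measured, 1 fell and 0 rose, and their median log2 fold change was 0.02. The gene that fell was Casp1, the inflammatory caspase that activates interleukin-1 beta. It stood at an implied 66.0 normalized counts in GNAQ R183Q skin and 117 in wild-type skin, and the authors' deposited table gives a log2 fold change of -0.83 with a DESeq2 adjusted p of 0.0314. The executioner caspase gene Casp6 is listed in the authors' deposited table at a log2 fold change of 0.25 with an adjusted p of 0.473. Summed over the 9 genes, implied levels were 6458 in GNAQ R183Q skin and 6456 in wild-type skin.

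Beside Asprv1, the other aspartic protease genes and the relatives of retroviral-like proteases gave 0 calls of 9 by DESeq2 in either direction, with a median log2 fold change of -0.13. At an unadjusted p of 0.05, 1658 of all 20152 genes were lower and 1197 higher. Among the 9 genes, 1 was lower and 1 higher at that p. These were Ctsd, the lysosomal cathepsin D, at a log2 fold change of -0.39 with an adjusted p of 0.109, and Nrip3, with 0.59 and 0.0970, by the authors' deposited table. Ddi2, a retroviral-like aspartic protease gene like Asprv1, had a mean expression of 1312 and a log2 fold change of -0.00 by the authors' deposited table.

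Substrates and structural partners of the envelope moved in the same direction as Tgm1 and Tgm3. Of 18 measured, 13 fell and 0 rose, and the median log2 fold change was -1.58. The 6 smallest p belonged to the envelope protein loricrin (Lor), which fell with a log2 fold change of -3.70, the suprabasal keratins Krt10 and Krt1, which fell 2.48-fold and 2.12-fold, the envelope scaffold gene Evpl, which fell 2.12-fold, and the small proline-rich genes Sprr1a and Sprr1b, which fell 5.20-fold and 4.32-fold by the authors' deposited table. Filaggrin (Flg), whose product CASP14 and ASPRV1 act on, was barely detected: the authors' deposited table gives it a mean expression of 9.90, a log2 fold change of -2.73 and an adjusted p of 0.206. The filaggrin-like genes Flg2 and Hrnr stand in the authors' deposited table, at log2 fold changes of -1.89 and -2.10, and only Hrnr passed, with an adjusted p of 0.0261. Flg, Flg2 and Hrnr were named after their values were seen. At this stage, RNA of Casp14 and Asprv1 was thus present at 758 and 5988 normalized counts on average while that of Flg stood near 10 in the authors' deposited table, a comparison not corrected for length.

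Of 17 other measured proteases and deiminases of cornification 5 fell and 0 rose, with a median log2 fold change of -0.39. Capn1, the gene of the large calpain 1 subunit, fell 1.61-fold by the authors' deposited table, with a DESeq2 adjusted p of 1.01e-05. The kallikrein genes Klk5, Klk7 and Klk8, whose proteases cut the junctions of the outer skin, fell with log2 fold changes of -3.22, -2.78 and -0.88, and the membrane serine protease gene Tmprss13 with -0.50, by the authors' deposited table. Klk7 passed narrowly, with an adjusted p of 0.0464 at a mean expression of 7.12 by the authors' deposited table. The other 12 did not pass. Of 10 measured protease inhibitors of the same layers 6 fell and 0 rose, with a median of -1.42.

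**Figure D4:**
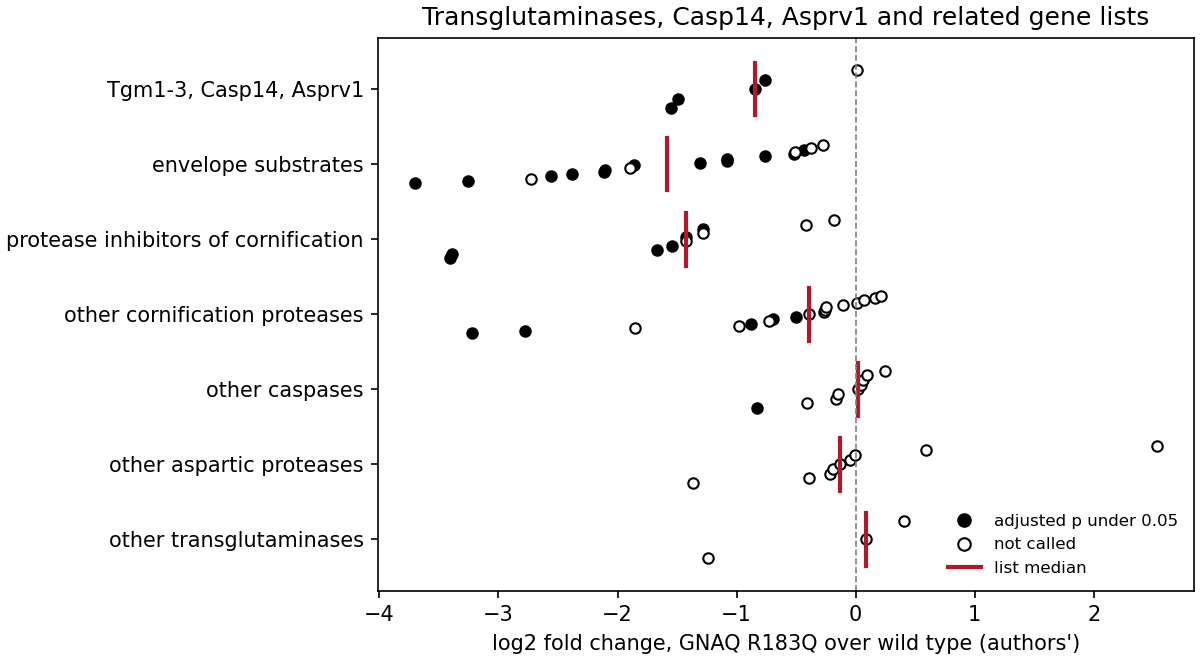
Authors' log2 fold change, GNAQ R183Q against wild type, for each measured gene (points, filled where the adjusted p is under 0.05) in the 5 genes and the 6 related lists, with red lines at list medians. The envelope substrates, at a median of -1.58, and the protease inhibitors, at -1.42, lie left of the 5 genes at -0.85, and the medians of the other caspases and other transglutaminases are 0.02 and 0.08.

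Markers of the cell layers were read beside these genes. All 6 suprabasal markers fell, with a median log2 fold change of -1.20, and their implied levels summed to 60516 normalized counts in GNAQ R183Q skin and 152699 in wild-type skin. The summed level of the 5 enzyme genes was 6792 in GNAQ R183Q skin and 15515 in wild-type skin, a ratio of 0.438, against a ratio of 0.396 for the suprabasal markers. Asprv1 alone made up 3049 of the enzyme sum in GNAQ R183Q skin and 8927 in wild-type skin. The ratio therefore does not describe each enzyme gene, and Tgm2, part of both sums, was not called. Periderm markers had 3 of 8 fallen, with a median log2 fold change of -1.04 over the 8. Their levels summed to 20986 in GNAQ R183Q skin and 42831 in wild-type skin. Basal markers had 1 of 6 fallen, Krt15, and summed to 53549 in GNAQ R183Q skin and 64189 in wild-type skin. Krt1 and Krt10 sit in both the suprabasal and the substrate list. The part of these layers in the fall of the 4 enzyme genes was not tested.

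Tgm2 and F13a1 are made by cells outside the epidermis, and markers of those cells were read too. Endothelial markers had 0 of 6 called and a summed level of 6989 in GNAQ R183Q skin and 6793 in wild-type skin. Mural markers had 0 of 4 called, with sums of 9291 in GNAQ R183Q skin and 7626 in wild-type skin, and macrophage markers 0 of 5, with 5272 in GNAQ R183Q skin and 4609 in wild-type skin. At an unadjusted p of 0.05 these 3 lists held 1 gene, a higher mural one. Of all 20152 genes, 1658 were lower and 1197 higher at that p. Dermal fibroblast markers had 1 of 7 fallen, skeletal muscle markers 1 of 6, mast cell markers 2 of 5, and erythroid markers 1 of 5 risen. Every marker of the 10 lists had a mean expression above 0, the lowest being 60.0 for Krt13, so markers of each of these layers and cell types were detected. Gnaq itself stands in the authors' deposited table at a log2 fold change of 0.09 with an implied interval from -0.16 to 0.34, and whether RNA of the R183Q form counts toward this level is not stated in the labels used here.

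**Figure D5:**
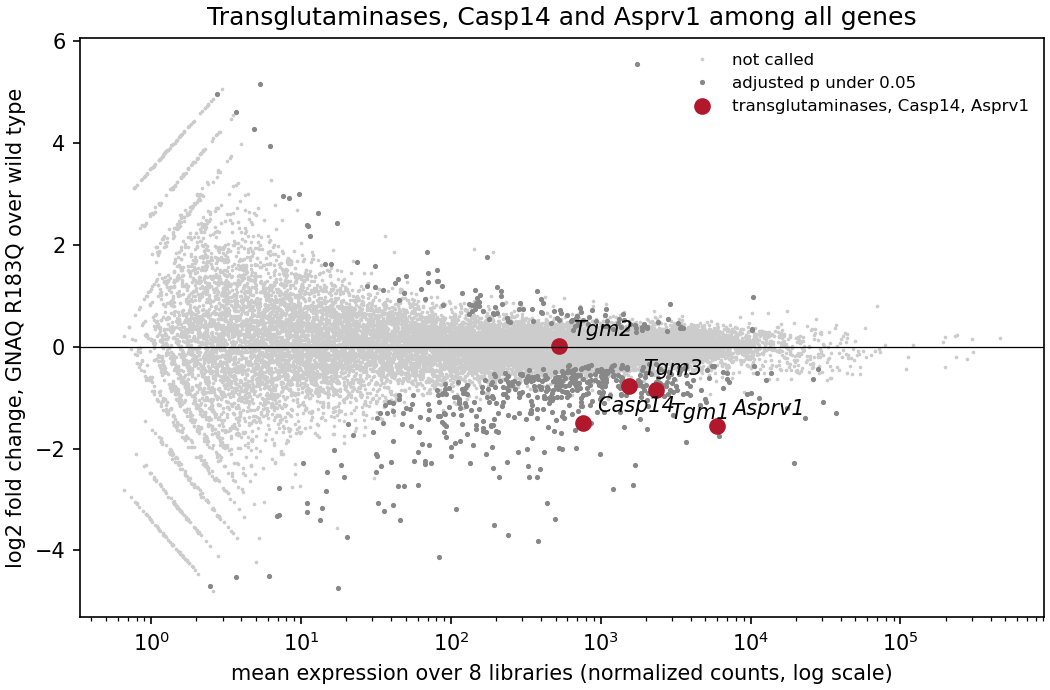
Each point is 1 of 20152 genes, by mean expression over 8 libraries (log axis) and the authors' log2 fold change between GNAQ R183Q and wild type, with genes of adjusted p under 0.05 in darker grey. Tgm1, Tgm3, Casp14 and Asprv1 (red) lie below the bulk of genes of like expression, and Tgm2 lies on 0.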

How the data were processed

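Libraries were made from total RNA with a stranded TruSeq kit, per the labels' protocols. The table used is the authors' comparison, and the submitters' processing notes name DESeq2 and mm39, while aligner, counter, annotation, strand setting and filter are not stated in the labels used here. The average expression column, a signal averaged by the authors, per the file headers, was read as normalized counts. Its values sum to 2.68e+07 over genes, a sum too large for CPM, and 26.8 units equal 1 CPM. The header names no unit, and values that are not whole could also be means of raw counts. The authors supplied the log2 fold change of mutant over control, its p-value and its adjusted p-value, per the file headers. The z-score columns are scores of log2 CPM that the authors summarised as mean and median per genotype.

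Standard errors were implied from fold change and p under a normal reference, with intervals of 1.96 such errors. Whether the fold changes were shrunken is not stated in the labels used here, and if they were, the implied errors, intervals, SDs and genotype means would not hold as given. Genotype means assume 4 and 4 libraries of equal weight, and SDs of single libraries are the implied errors times the square root of 2. Limits on libraries assume z-scores made with a sample SD, whose squares sum to 7, a sum that no gene broke. Lengths come from the longest transcript of GENCODE vM21 (GRCm38), protein-coding first, and promoters from RefSeq. Scripts used Python 3.11.15, scipy 1.17.1, statsmodels 0.14.6 and patsy 1.0.2 and were tested on simulated data. Library depth is unknown, and no interval here rests on counts.

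The genes, the 6 related lists and the 10 marker lists were chosen with earlier results of these data known. Named genes were the members, other transglutaminases, caspases and aspartic proteases, the up to 6 called genes of smallest p in each direction of the substrate and protease lists, and the 2 nearest genes by z-scores, of which some are not reported here. Alternatives covered thresholds, adjustment, centring, a length and GC trend, and a linear model.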

Additional observations from a re-analysis of the deposited data

How the results depend on the processing

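The 4 falls held at an adjusted p of 0.01, with adjustment over genes of at least 1 CPM, after centring and after removal of a trend on transcript length and GC content. Removing that trend gave log2 fold changes of -0.71 for Tgm1, -0.78 for Tgm3, -1.44 for Casp14, -1.35 for Asprv1 and 0.11 for Tgm2. With at least 2-fold change, or with Bonferroni adjustment, 2 genes were called, Casp14 and Asprv1 in both cases. The share of all genes called was not computed for any of these settings, so the counts have no background beside them. A linear model of log2 CPM rebuilt from the mean z-scores, with 6 residual degrees of freedom and each gene's own spread, called 0 of the 5 genes and 0 of all 20152, with a smallest adjusted p of 0.0503. This model gave a p only, so the authors' log2 fold changes stay -0.85 for Tgm1, -0.76 for Tgm3, -1.49 for Casp14 and -1.55 for Asprv1. Under the model, Tgm1, Tgm3, Casp14 and Asprv1 had adjusted p of 0.197, 0.267, 0.0826 and 0.137. All 4 genes had an unadjusted p under 0.05 by it, as did 6.51% of all genes in the lower direction. The same model called 0 substrates, 0 other proteases, 0 inhibitors and 0 other caspases. With at least 2-fold change 10 substrates, 6 inhibitors, 2 other proteases and 0 other caspases fell. In 300-base windows that include 50 bases after the start, the share of promoters with a motif was 7.81% for AP-1, 57.5% for CACCC, 2.09% for Grainyhead, 10.8% for C/EBP and 13.6% for the TATA box. By mean z-scores alone, an alternative chosen after seeing the data, 3 genes must separate, without Tgm3. No paired analysis was possible because the table gives no value per library, and for the same reason no replicate could be left out.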
